A study of Homo sapiens with 4 samples.

Results

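The mRNA export factors are the proteins that carry finished messenger RNA out of the nucleus, and 10 of their genes were followed here in the m6A-seq peak list of MDA-MB-231 cells, a human triple negative breast cancer line. The genes were NXF1, NXT1, ALYREF, DDX39B, THOC1, THOC2, THOC5, MCM3AP, NUP98 and XPO1. They were chosen by name, and a listed peak was assigned to a gene when its Ensembl ID without version mapped to that symbol. Of the 10 genes, 8 carried at least 1 peak, with 21 peaks in all, out of 20261 peaks on 10140 gene IDs. The series held 2 input libraries, made from fragmented poly(A) RNA, and 2 IP libraries, in which the fragments were pulled down with an antibody against N6-methyladenosine (m6A). All 4 came from the same line, as 2 biological replicates of each kind, and their titles carry the tag shNS, which the labels do not explain. In their paper the authors use shNS for the control group of YTHDC1 knockdown by shRNA, without describing it for these libraries. The treatment label of the IP libraries names YTHDC1, and the titles and protocol, which describe the m6A antibody, were followed instead. The authors deposited 1 combined list, so no value for a library exists here and no spread between replicates can be given.

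In the nucleus, m6A on a transcript can be bound by the reader YTHDC1, which hands the RNA to the export machinery. The TREX complex, built from THO subunits, the helicase DDX39B and the adaptor ALYREF, loads onto the transcript during transcription and splicing and recruits the receptor dimer of NXF1 and NXT1. TREX-2, with MCM3AP as its scaffold, links this step to the nuclear pore, where nucleoporins such as NUP98 line the channel, and XPO1 exports proteins and a subset of RNAs by a separate route that depends on the GTPase RAN. The question here was which transcripts of this machinery carried m6A themselves, and where.

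A peak is a region with more IP than input reads, and its score, which was taken to be a p-value from peak calling by the authors, is smaller for a stronger peak. The score could also be an FDR, since the file does not say which it is. The depth behind a peak is unknown, because the list holds no read counts. It also held far more peaks on the minus strand (14648) than on the plus strand (5613), and minus-strand peaks were stronger, with a median score of 3.2e-10 against 1.4e-05. Each gene was therefore read against genes of its own strand. NXT1 lies on the plus strand and the other 9 genes on the minus strand. Of 7 transcripts for which MDA-MB-231 cells are known, 4 had a peak (VIM, CAV1, MSN and ANXA2), and CD44, AXL and KRT18 had none. The ANXA2 peak was weak (score 0.0012). Of 6 markers of other cells 1 had a peak (ERBB2, smallest score 2.5e-15). Among all protein-coding genes 57.6% on the minus strand and 30.4% on the plus strand had one. The marker counts were not matched by strand and are no evidence of cell type. A peak shows only that a transcript was present.

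Most of the export genes were listed. On the minus strand 7 of 9 had a peak, beside 57.6% of all 7488 protein-coding genes of that strand (95% Wilson interval 56.4 to 58.7%). On the plus strand NXT1, the only such gene, had a peak, beside 30.4% of 7802 genes (29.4 to 31.4%). The stronger peaks are those whose score did not exceed the list median of 5.2e-08. Such a peak was present in 6 of the 9 minus-strand genes, beside 45.3% of minus-strand genes, and not in NXT1, beside 12.6% of plus-strand genes. These backgrounds were not limited to genes expressed in MDA-MB-231 cells, since the list holds no expression values. The share among so few export genes is also uncertain, so no excess over the background is claimed. With unlisted genes ranked as weakest, the median strongest score was 1.3e-34 over the 9 minus-strand genes and 1.2e-05 over all protein-coding genes of the strand. The second value depends largely on how many genes had no peak. Over the listed minus-strand genes alone, of any kind, the median was 4e-22. This value leaves out genes without a peak and includes genes that are not protein-coding. The export gene median of 1.3e-34 counts ALYREF and DDX39B as weakest, so it is not comparable with 4e-22. Genes with spans of 20 kb or more were listed more often than shorter ones. Among minus-strand genes a peak was present in 35.9% of those spanning under 5 kb, 53.7% of those from 5 to 20 kb, 65.1% of those from 20 to 100 kb and 63.9% of those of 100 kb or more. ALYREF and DDX39B, the genes without a peak, are the shortest of the 9 minus-strand genes (3.75 and 11.8 kb), and NXF1 is the next (13.3 kb). The 6 minus-strand genes of 20 kb or more all had a peak. The part of gene length in these counts was not tested.

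**Figure D1:**
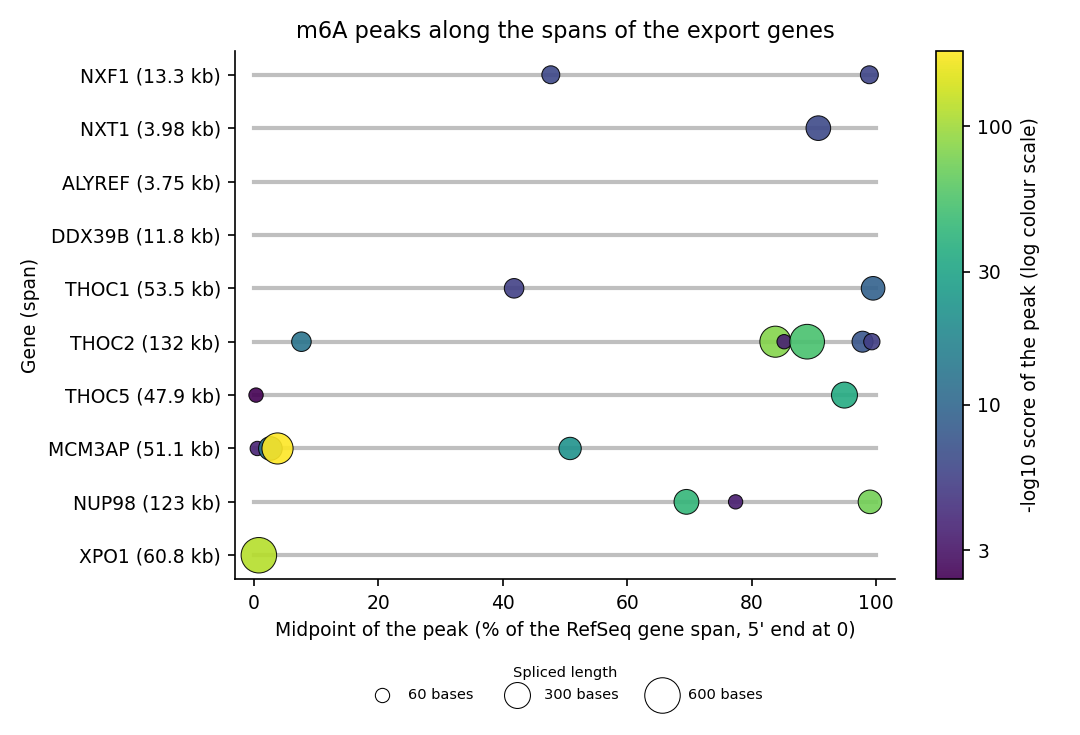
Peaks of the 10 export genes by midpoint, as a percent of the RefSeq gene span from the 5′ end (x axis), with 1 line per gene and its span in kb. Each of the 21 circles is a peak, sized by spliced length and coloured by −log10 score. The peak of XPO1 and 3 of the 4 peaks of MCM3AP sit at the 5′ end, those of THOC2 and NUP98 mostly in the 3′ part, and ALYREF and DDX39B have none.

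Both receptor genes had a peak near the 3′ end, and their scores were above the list median. NXF1, which carries bulk mRNA through the pore (ENSG00000162231.14, chromosome 11, minus strand), had 2 peaks of 120 bases each. The peak at chr11:62799034-62799153 lay at 47.7% of the gene span and had a score of 6.3e-07. The other, chr11:62792213-62792332, lay 83 bases from the 3′ end of the RefSeq gene and had a score of 1.4e-06. Among genes of its strand NXF1 ranked low, since 74.4% of the 6624 listed minus-strand genes had a strongest peak with a score as small as that of NXF1 or smaller. NXT1, the small partner that stabilises NXF1 (ENSG00000132661.4, chromosome 20, plus strand), had 1 peak of 266 bases at chr20:23354270-23354535, which ended 236 bases before its 3′ end. Its score of 5.1e-07 was close to that of NXF1. Among plus-strand genes this was a middle rank, since 48.4% of the 3516 listed genes were at or under it, and the score was smaller than the median of plus-strand peaks (1.4e-05). Near-equal scores took different ranks on the 2 strands.

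Among THO subunits, the number and strength of peaks differed widely. THOC2, the largest subunit and the scaffold of the complex (ENSG00000125676.20, chromosome X, minus strand), had 6 peaks with 1505 spliced bases. As many peaks or more were found in 3.91% of listed minus-strand genes. Its strongest peak, chrX:123621182-123622801, had 450 bases in blocks of 44 and 406 bases and a score of 2e-83. A further peak of 571 bases ran over 6 blocks (chrX:123610959-123619523, score 3.2e-53), of which the 4 inner blocks measured 138, 70, 158 and 77 bases from the 5′ side. Peaks in several blocks cross exon borders, so this peak touched 6 exons of the authors' annotation. Between these peaks, which lay at 83.8% and 88.9% of the span, was a weak peak of 61 bases (chrX:123620152-123620212, score 0.00036), 969 genomic bases from the first and 628 from the other.

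The remaining THOC2 peaks lay at the ends of the gene. The most 5′ peak joined a block of 105 bases at the start of the gene to one of 46 bases in a further exon, 20194 genomic bases from border to border (chrX:123712863-123733056, score 1e-13). It began 4 bases outside the RefSeq span. Of the 3′ peaks, one of 91 bases (chrX:123601460-123601550, score 5.4e-06) ended 891 bases before the 3′ end. The other, 181 bases at chrX:123603437-123603617 (score 2.2e-08), was covered over its full 181 bases by a plus-strand peak of the pseudogene FERP1 (chrX:123603432-123603638, score 1.2e-08). The list alone does not say to which of these genes the signal belongs. It was the only one of the 21 peaks that shared bases with a peak on the opposite strand, beside 7.07% of all minus-strand peaks.

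THOC1 and THOC5 had 2 peaks each, the stronger one near the 3′ end. THOC1, a core THO subunit (ENSG00000079134.12, chromosome 18, minus strand), had a peak of 241 bases that ended 149 bases before its 3′ end (chr18:214669-214909, score 6.9e-10), and one of 151 bases at 41.8% of the span (chr18:245575-245725, score 3.2e-06). THOC5, the subunit that bridges THO to NXF1 and other partners (ENSG00000100296.13, chromosome 22, minus strand), had a peak of 301 bases 2276 bases from its 3′ end (chr22:29508155-29508455, score 1.3e-34). Its other peak, at the 5′ end, was the weakest of the 21, with 61 bases and a score of 0.0044 (chr22:29553573-29553633), and 99.0% of minus-strand peaks had a score at or under it. By strongest score the order within THO was THOC2, THOC5 and THOC1, with 24.8%, 41.5% and 65.9% of listed minus-strand genes at or under each. Without replicate values it cannot be said whether neighbours in this order differ beyond their error.

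MCM3AP, the TREX-2 scaffold also known as GANP (ENSG00000160294.11, chromosome 21, minus strand), had the strongest peak of all 10 genes. That peak, 451 bases at chr21:46284110-46284560, had a score of 1e-187, and a score this small or smaller was found for 6.10% of minus-strand peaks. Towards the 5′ end it was followed, after 239 bases, by a peak of 241 bases (chr21:46284800-46285040, score 4e-14) and, after a further 926 bases, by a weak one of 61 bases (chr21:46285967-46286027, score 0.00025). These 3 peaks lay within the first 3.78% of the span by midpoint. The fourth peak was in the middle of the gene, at 50.8%, with 211 bases in blocks of 86, 114 and 11 bases (chr21:46259255-46261365, score 3.2e-22). No peak was listed in the last 10% of MCM3AP, and the nearest ended 24122 bases before its 3′ end.

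NUP98, whose precursor gives rise to the nucleoporins NUP98 and NUP96 (ENSG00000110713.17, chromosome 11, minus strand), had 3 peaks in the 3′ part of its span. The strongest, 241 bases at chr11:3676083-3676323, ended 1073 bases before the 3′ end (score 2.5e-74). A peak of 270 bases lay at 69.5% of the span (chr11:3712300-3712569, score 2e-43). The third, 60 bases at 77.4%, was weak (chr11:3702664-3702723, score 0.00044). Of listed minus-strand genes, 27.0% were as strong as NUP98 or stronger.

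XPO1, the exportin also known as CRM1 (ENSG00000082898.17, chromosome 2, minus strand), had a single peak, and it lay at the start of the gene. The peak was the longest of the 21, with 600 spliced bases in blocks of 15 and 585 bases (chr2:61537772-61538506), and had a score of 1e-114. Its midpoint was at 0.779% of the span. Of listed minus-strand genes, 19.3% reached this score. Among the export genes only MCM3AP had a smaller score, and no other gene with peaks had all of them in the first 10% of its span.

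**Figure D2:**
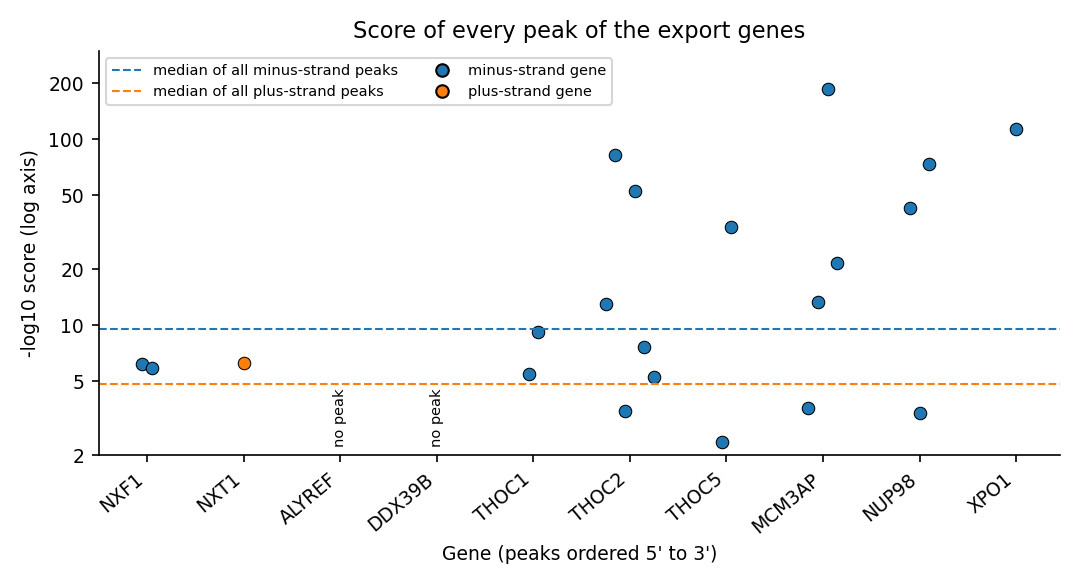
−log10 score (y axis, log scale) of each of the 21 peaks by gene, ordered from 5′ to 3′ within a gene. Dashed lines mark the median score of all minus-strand peaks (3.2e-10) and all plus-strand peaks (1.4e-05). Scores run from 0.0044 in THOC5 to 1e-187 in MCM3AP, and the peaks of NXF1 and THOC1 lie below the minus-strand line.

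Peaks of 1 gene could be as unlike as peaks of different genes. Strong and weak peaks stood side by side in THOC2, MCM3AP and NUP98, where the smallest and the largest score were 2e-83 and 0.00036, 1e-187 and 0.00025, and 2.5e-74 and 0.00044. Of the 21 peaks, 12 had scores no larger than the list median and 9 had larger ones. Their median length of 211 bases, with a range from 60 to 600, was that of all peaks (211 bases). Minus-strand peaks alone, the strand of 20 of the 21, had a longer median of 240 bases. In 20 of 21, lengths divided by 30 bases left 0 or 1 base over. Peaks in more than 1 block numbered 5, beside 17.9% of all peaks. No score was listed as 0.

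**Figure D3:**
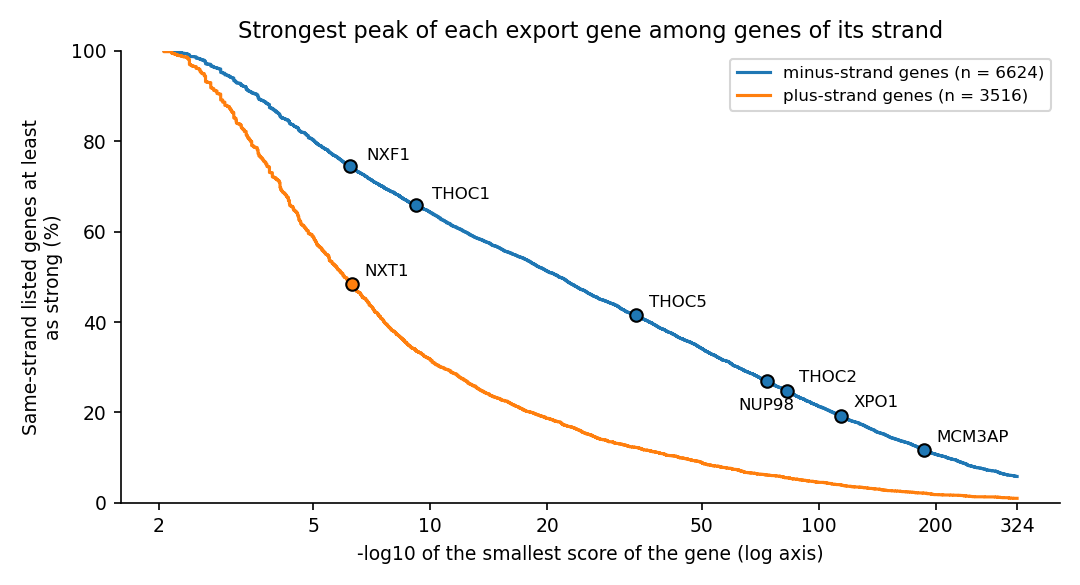
Share of listed genes of the same strand (y axis, percent) with a strongest peak at least as strong as the −log10 score on the x axis (log scale, scores of 0 drawn at the far end), for 6624 minus-strand and 3516 plus-strand genes. Circles mark the 8 export genes with a peak, from MCM3AP at 11.7% to NXF1 at 74.4% on the minus strand, with NXT1 at 48.4% on the plus-strand curve.

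The export genes had peaks at both ends. Of the 20 peaks wholly inside the RefSeq span, 7 had their midpoint in the last 10% of the span and 5 in the first 10%, while 8 lay between. For minus-strand genes the counts were 6 and 5 of 19, or 31.6% (95% Wilson interval 15.4 to 54.0%) and 26.3% (11.8 to 48.8%). Among all 11541 minus-strand peaks of protein-coding genes 37.8% lay in the last 10% and 12.1% in the first 10%. Both shares lay inside the wide intervals of the export genes, the latter close to the lower bound. The 7 peaks near the 3′ end belonged to NXF1, NXT1, THOC1, THOC2, THOC5 and NUP98. Of the 5 near the 5′ end, 3 belonged to MCM3AP alone, and THOC5 and XPO1 had 1 each. The intervals treat peaks of the same gene as independent, so they are too narrow if such peaks go together. The most 5′ peak of THOC2, with its midpoint at 7.62% of the span, was left out of these counts, since it began just outside the span. Counting it would raise the share of the export genes in the first 10%, and no interval was computed with it. Whether 12.1% lies inside the interval may thus depend on this choice. The span includes introns, and the exon or UTR of each peak was not analysed here.

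The 5′ peaks were set against RefSeq start sites, since short stretches of transcript are known there. In GRCh38.p14, 14 start windows were listed for the 10 genes, each with the first 50 transcribed bases, and peaks covered bases of 3 of them. In XPO1 the larger block of the peak began at base 61538356, the start site itself, and covered all 50 bases. THOC2 was covered over all 50 bases as well, and THOC5 over 28 bases of the more 3′ of its 2 windows. In MCM3AP the start site listed, base 46285611, lay between peaks: the weakest peak was 356 to 416 bases upstream of it and the strongest 1051 to 1501 bases downstream. The covered bases were searched on the transcript strand for 12 sequences of 5 bases in which m6A is usually found. These begin with AAAC, with AGAC, with GAAC or with GGAC, and end with A, with C or with T. Matches can overlap by 1 base. XPO1 held 1 match in its 50 covered bases, THOC5 held 1 in 28, and THOC2 held none in 50. Over whole windows of 50 bases, whether under a peak or not, 7 of the 14 windows of the export genes (some of which overlap) and 37.1% of the 21547 windows of protein-coding genes held at least 1. Shown are stretches of at most 30 covered bases from these windows, from 5′ to 3′ on the minus strand, with a match in capitals. They are chr2:61538309-61538338, chr22:29553606-29553633 and chrX:123733023-123733052. Only the THOC2 stretch begins at a start site, and those of XPO1 and THOC5 begin further into their windows.
XPO1: ggcgccatgggctgaAAACTcaaccgagat
THOC5: ggcggggctgggcgctccgGGACTgagg
THOC2: atccgggcttctgctactagtgagaggaag
The match of XPO1 was AAACT and that of THOC5 was GGACT. These windows hold only a part of each peak, that of XPO1 lying inside it, and a match is not a measured site.

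The surroundings of the 2 genes without a peak differed. ALYREF, the adaptor that hands mRNA to NXF1 (ENSG00000183684, chromosome 17, 81887835 to 81891587, minus strand), lies among genes with many peaks. Within 500 kb on either side, 15 of 19 minus-strand protein-coding genes (78.9%, 95% Wilson interval 56.7 to 91.5%) and 7 of 13 plus-strand genes had a peak. PCYT2, with the nearest minus-strand peak, had peaks with scores of 2.5e-48 and 1e-114. Around ALYREF the list was thus well filled, and ALYREF itself was not listed.

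DDX39B, the helicase also known as UAP56 that loads ALYREF onto RNA (ENSG00000198563, chromosome 6, 31530226 to 31542003, minus strand), lies in the HLA region, where few genes had a peak. Within 500 kb, 4 of 26 minus-strand genes (15.4%, 6.15 to 33.5%) and 0 of 27 plus-strand genes (upper bound 12.5%) were listed. Within 2000 kb the counts were 13 of 71 (18.3%, 11.0 to 28.8%) and 2 of 62 (3.23%, 0.889 to 11.0%). On chromosome 6 as a whole, 48.2% of 456 minus-strand genes and 24.8% of 432 plus-strand genes had a peak. The 4 listed neighbours were HLA-C (1.3e-27), HLA-B (7.9e-48), EHMT2 (1.6e-36) and ATP6V1G2 (0.00058). The ATP6V1G2 peak of 180 bases (chr6:31546156-31546603) was listed again, with 179 bases and the same score, for the read-through gene ATP6V1G2-DDX39B. No peak of any gene lay inside the span of DDX39B or of ALYREF. The low share around DDX39B and its missing peak stood together, and the part of the region in the missing peak was not tested. DDX39B also has a close paralog, DDX39A, and reads that mapped to several places were kept in the alignment. Whether such reads counted in peak calling is not stated, and how many reads these genes share was not examined. The list holds no expression values, so a gene without a peak cannot be called unmethylated.

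**Figure D4:**
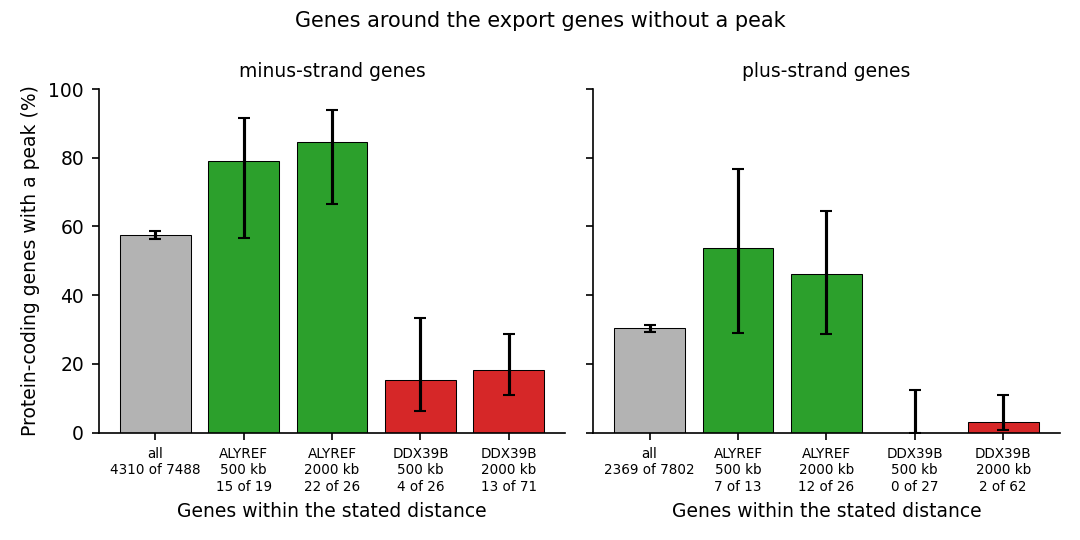
Share of protein-coding genes with a peak (y axis, percent) for all genes of a strand (grey) and for genes within 500 or 2000 kb of ALYREF (green) and DDX39B (red), by strand, with the counts under each bar. Error bars are 95% Wilson intervals. Shares around DDX39B are between 0 and 18.3%, and those around ALYREF between 46.2 and 84.6%.

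To see how the other genes of the route stood, 75 more genes were read by role. A peak was listed for 40 of them, with 86 peaks in all. By strand, 25 of 34 minus-strand genes (73.5%) and 10 of 30 plus-strand genes (33.3%) had a peak, beside the 57.6% and 30.4% of all protein-coding genes. For 11 genes the reference gave no strand, and 5 of these were listed. Counts for a whole role pool the strands and rest on few genes, so roles were not compared with each other.

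Other TREX subunits and adaptors were listed for 5 of 11 genes, with 3 of 5 on the minus strand and 2 of 5 on the plus strand. The smallest score was that of POLDIP3, an adaptor of the complex (1e-142), and DDX39A, the paralog of DDX39B, had the most peaks (3, with 721 spliced bases and a smallest score of 4e-26). THOC3, THOC6, THOC7, FYTTD1, ERH and LENG8 had none. All 5 further genes of TREX-2 were listed, of which 3 lie on the minus strand and 2 had no strand in the reference. The smallest score was in SEM1 (1e-84) and the most peaks were in PCID2 (3). Proteins that bind the cap or join it to the export route had peaks for 5 of 6 genes. By strand these were 2 of 2 on the minus and 3 of 3 on the plus strand. NCBP3, on the minus strand, had the most peaks (6) and the smallest score (1e-155), and 14.3% of listed genes of its strand were at or under that score. On the plus strand the shares for SRRT, ZC3H18 and PHAX were 3.27%, 7.94% and 11.9%. NCBP1 had no peak.

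The exon junction complex and its partners, which mark spliced mRNA, were listed for 5 of 6 genes. Of these 6 genes 5 lie on the minus strand by the reference, and 4 of those had a peak. ACIN1 stood out with 6 peaks, 2552 spliced bases and a strongest score of 0, and MAGOH had none. None of the 4 paralogs of NXF1 and NXT1 (NXF2, NXF3, NXF5 and NXT2) was listed. For the last steps on the cytoplasmic side of the pore, DDX19A had 1 weak peak (0.00036), and GLE1 and DDX19B had none.

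Of 29 other nuclear pore genes 13 were listed. Among those with a strand in the reference they were 9 of 13 on the minus strand and 3 of 14 on the plus strand. NUP62, a nucleoporin of the central channel, had the most peaks (5, with 2191 spliced bases) and a strongest score of 0, and 1 of the 5 shared bases with a peak of ATF5 on the opposite strand. NUP153, with 4 peaks, had a strongest score of 0 as well. The 16 genes without a peak were RAE1, the partner of NUP98 in mRNA export, and NUP42, NUP214, NUP133, NUP107, NUP160, NUP85, NUP43, NUP37, SEH1L, NUP205, NUP188, NUP93, NUP155, NUP35 and NUP58.

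Among genes of the RAN cycle and other exportins, 6 of 11 were listed, with 4 of 5 on the minus strand and 1 of 4 on the plus strand. RANBP3, a cofactor of XPO1, had 3 peaks and a strongest score of 0. RANGAP1, which activates the GTPase of RAN, had 4 peaks and also a strongest score of 0, as did XPO6 with 2 peaks. RAN itself, XPO4, XPO7, XPOT and CSE1L had no peak.

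**Figure D5:**
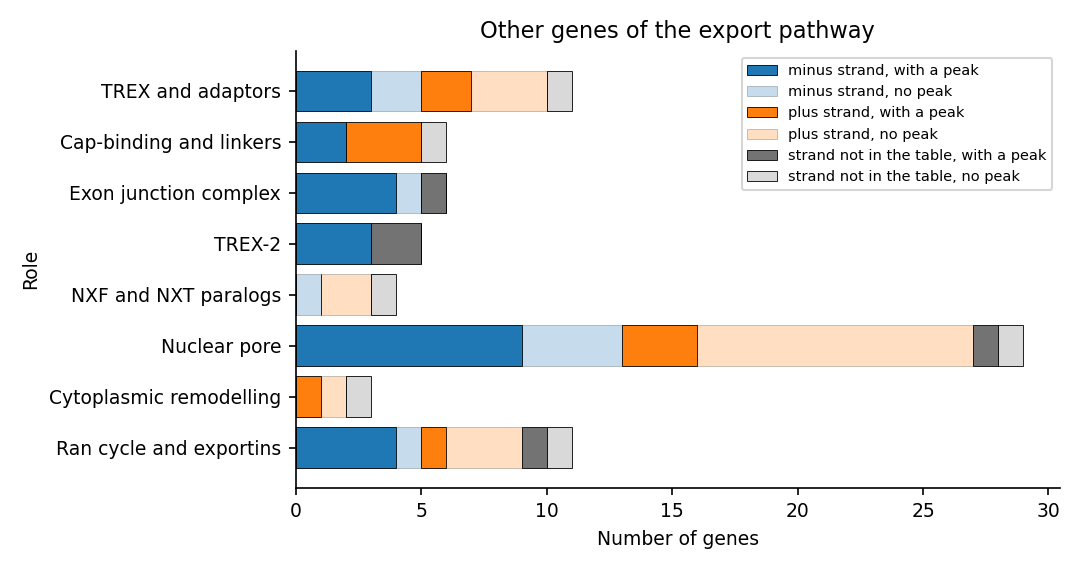
Number of genes (x axis) in 8 roles of the export pathway beside the 10 export genes, 75 in all. Dark bars are genes with a peak and pale bars genes without, in blue for the minus strand, orange for the plus strand and grey where the reference gave no strand. All 5 genes of TREX-2 have a peak (3 on the minus strand, 2 without a strand). None of the 4 NXF and NXT paralogs has one (1 minus, 2 plus, 1 without a strand). Of all protein-coding genes 57.6% on the minus strand and 30.4% on the plus strand have one, and roles were not compared.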

How the data were processed

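m6A-seq of 2 input and 2 IP libraries of MDA-MB-231 cells, grouped by title, was analysed from 1 deposited list. With STAR (hg38, GENCODE v33 genes), the authors aligned the reads, keeping those that mapped to several places, then called peaks with exomePeak, and combined the replicates. The deposited score was read as a p-value, 1 per peak. Per the labels the library kit was stranded. Depth is not given.

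Ensembl IDs were matched without version (10103 of 10140 had a symbol), and spans, starts and strands came from RefSeq (GRCh38.p14). All 10 export genes matched. Backgrounds held 15290 of 20056 protein-coding genes, those with a symbol match and a strand, without chromosome Y and the mitochondrial genome. Coordinates are written from 1. Overlap meant at least 1 shared base. Wilson intervals cover counting error only. Python 3.11.15, pandas 2.3.3 and scipy 1.17.1 were used, and functions were tested on simulated data.

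Members and lists were chosen with earlier results of these data known, so no test over the members was run. All 10 export genes were named. In each further role, the genes with the smallest score (ties going to the longest peak), with the most peaks and without a peak were named. SRRT, ZC3H18, PHAX, NUP153 and XPO6 were named outside this rule. Neighbourhoods, span classes and start windows were added after the peaks were seen, and genes named there were chosen after their values were seen. Alternatives covered the score limit, merging, opposite-strand overlap, position and background.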

Additional observations from a re-analysis of the deposited data

How the results depend on the processing

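The number of export genes with a peak was 8 in the first part of the list alone (before its chromosomes start again) and after leaving out opposite-strand overlaps (of 1 base, or of 50% of the shorter peak). It was 6 with scores up to the list median, where NXF1 and NXT1 were lost. At that limit 12 of the 21 peaks and 4 of the 7 peaks in the last 10% of the span remained, and the share of protein-coding genes with a peak was 45.3% on the minus and 12.6% on the plus strand. Among protein-coding genes alone, the share at or under the strongest score rose to 81.4% for NXF1, 73.7% for THOC1, 29.4% for THOC2, 48.5% for THOC5, 14.2% for MCM3AP, 31.8% for NUP98 and 23.1% for XPO1, in the same order as before. Without opposite-strand overlaps it was 42.1% for NXT1. Of the 75 further genes, 29 had a peak with a score up to the list median, against 40 in all and 40 without opposite-strand overlaps. Other alternatives left the shares inside their 95% Wilson intervals and gave 20 or 21 peaks of the export genes and, by the border of the peak, 8 near the 3′ end. No paired analysis was possible because each peak has 1 score for both replicates together, for which reason no replicate could be left out either. For the changed shares of genes, the cause was not tested. Without depth, a missing peak in ALYREF or DDX39B sets no upper limit on methylation.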
